A study of Mus musculus with 26 samples.

Results

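The proteasome genes described here are the members of the Psma, Psmb, Psmc, Psmd, Psme, Psmf and Psmg families, taken by gene symbol from a count table of mouse leukaemia model cells. The rule found 48 genes among the 48795 in the table, and all 48 had at least 1 count. Of these, 46 passed the filter on low counts and were tested among 14663 genes. The other 2 were Psma8, a testis-specific alpha subunit, with 1 count in 1 MN1 KO library, and Psmb11, the thymus-specific catalytic subunit, with 5 counts in all. The 46 tested genes had at least 8.65 counts per 1000000 (CPM) in every library, so none was tested because of high values in 1 group alone.

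The 26S proteasome degrades proteins tagged with ubiquitin. Its barrel-shaped 20S core has outer rings of alpha subunits and inner rings of beta subunits, of which PSMB5, PSMB6 and PSMB7 carry the active sites, and it is capped by a 19S particle whose ATPases unfold the substrate and whose lid removes the ubiquitin. In immune cells, and in many cells exposed to interferon gamma, the immunosubunits PSMB8, PSMB9 and PSMB10 take the places of PSMB5, PSMB6 and PSMB7 in newly built cores, and the PA28 cap made of PSME1 and PSME2 opens the core, which changes the peptides available to MHC class I.

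RNA was sequenced from myeloid progenitor cells of C57BL/6 background that had been transformed with MN1, a transcriptional coregulator overexpressed in some leukaemias, or with Hoxa9 and Meis1 (H9M), homeobox genes that together drive acute myeloid leukaemia in mice. In each model, cells with a knockout (KO) of Lsd1, the histone demethylase gene listed as Kdm1a, were set against control (CTL) cells, with and without 1 µM all-trans retinoic acid (ATRA), which differentiates myeloid cells. The KO was induced with 0.1 µM 4-hydroxy-tamoxifen (4-OHT) over 72 h. The strain field reads CreERT2-;LSD1TM1Schuele for all 24 RNA libraries, KO included, and no label says whether CTL cells received 4-OHT, so the KO and 4-OHT cannot be told apart. The groups were MN1 KO + ATRA, MN1 CTL + ATRA, MN1 KO, MN1 CTL, H9M KO + ATRA, H9M CTL + ATRA, H9M KO and H9M CTL, with 3 libraries in each. All were grown in DMEM with 15% FCS, 10 ng/ml mIL3, 10 ng/ml hIL6 and 100 ng/ml mSCF. The labels do not say that replicates were separate cultures, so p-values measure only the spread between these libraries. The mark H3K4me2, found at active and poised promoters and removed by LSD1, was profiled by ChIP-seq in lineage-negative bone marrow cells of 1 GFI1-KD and 1 GFI1-WT sample; the sources used here do not describe how GFI1-KD was made.

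RNA library totals ran from 22402558 to 32674685 counts. Kdm1a averaged 1.38 CPM in MN1 KO and 1.00 CPM in H9M KO, against 185 CPM in MN1 CTL and 143 CPM in H9M CTL. With ATRA it averaged 2.01 CPM in MN1 KO and 11.7 CPM in H9M KO, against 188 CPM in MN1 CTL and 156 CPM in H9M CTL, so the H9M KO + ATRA libraries kept the most Kdm1a of the KO groups. The column names carry 1 tag for every H9M library and another for every MN1 library, and the labels do not say what it stands for. Differences between the models therefore cannot be told apart from whatever this tag marks. The 7 myeloid progenitor markers were present in every library. Their summed level was higher in KO than in CTL in each model, with and without ATRA, but the markers did not all rise: 5 were higher and 1 lower in MN1 KO, and 3 were higher and 2 lower in H9M KO, where the median log2 fold change was -0.08 (sums without ATRA: MN1 6347 to 6453 against 4139 to 4239 CPM; H9M 16310 to 16730 against 13250 to 13650 CPM). B cell markers summed to at most 0.327 CPM in MN1 libraries, and to 2.12 to 2.74 CPM in H9M KO against 18.9 to 19.2 CPM in H9M CTL, with Ms4a1 and Pax5 at 0 there. Dendritic markers summed to between 308 and 342 CPM in MN1 and between 22.8 and 49.7 CPM in H9M, with Cd209a and Siglech at 0. Erythroid markers summed to at most 13.8 CPM in MN1 and 2.49 CPM in H9M, and the T and NK cell markers to at most 0.162 CPM. The 5 stromal markers summed to 510 to 526 CPM in MN1 KO, against 396 to 407 CPM in MN1 CTL, and to 913 to 954 CPM in H9M CTL + ATRA, against 649 to 665 CPM in H9M CTL. Nearly all of this sum was Pecam1, an endothelial marker that myeloid cells also express, which averaged 505 CPM in MN1 KO, against 388 CPM in MN1 CTL, while Col3a1 was at 0 in every library. In bulk RNA, fewer cells of a type and less RNA per cell cannot be told apart, and the part of the marker shifts in the results below was not tested.

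The promoters of 3 immunoproteasome genes are shown because Psmb8 and Psmb9 fell in MN1 KO, Psme1 rose in H9M KO, and the windows differ in the interferon-type motifs they hold. The windows are RefSeq sequence of GRCm38.p6, from 250 bases before to 50 bases after the gene's start, 5′ to 3′ on the gene's strand, and capitals mark the motifs found. Psmb9 (chr17:34187281-34187580, minus strand) and Psmb8 (chr17:34197945-34198244, plus strand) are neighbours in the MHC, and the starts of Psmb9 and of the peptide transporter gene Tap1 lie 226 bases apart and point away from each other. The third window is that of Psme1 (chr14:55578244-55578543, plus strand).
Psmb9: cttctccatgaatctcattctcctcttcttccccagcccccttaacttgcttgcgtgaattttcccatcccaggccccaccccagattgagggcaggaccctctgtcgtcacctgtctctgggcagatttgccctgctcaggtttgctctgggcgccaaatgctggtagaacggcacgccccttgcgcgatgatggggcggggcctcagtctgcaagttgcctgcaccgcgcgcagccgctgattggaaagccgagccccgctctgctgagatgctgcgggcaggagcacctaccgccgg
Psmb8: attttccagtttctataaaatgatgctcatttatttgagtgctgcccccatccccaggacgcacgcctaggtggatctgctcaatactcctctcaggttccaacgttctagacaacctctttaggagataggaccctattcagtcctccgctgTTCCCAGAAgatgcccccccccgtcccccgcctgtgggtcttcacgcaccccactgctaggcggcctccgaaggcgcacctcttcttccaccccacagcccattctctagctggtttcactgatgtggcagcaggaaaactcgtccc
Psme1: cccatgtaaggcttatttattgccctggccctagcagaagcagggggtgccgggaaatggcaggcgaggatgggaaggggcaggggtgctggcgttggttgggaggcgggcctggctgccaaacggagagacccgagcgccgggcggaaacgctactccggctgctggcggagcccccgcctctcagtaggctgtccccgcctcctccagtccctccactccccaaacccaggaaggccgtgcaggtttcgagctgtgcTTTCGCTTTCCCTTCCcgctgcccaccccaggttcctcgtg
A match to the gamma-activated sequence TTCNNNGAA, an element of genes that respond to interferon gamma, is capitalised in the Psmb8 window. In Psme1 the run of capitals joins a match to the interferon-stimulated response element, GAAA and GAAA with any 2 bases between them, read on the other strand as TTTC and TTTC, and an overlapping match to the Ets-Irf composite element, GGAA and GAAA with 2 bases between them, read as TTTC and TTCC, which PU.1 binds together with IRF8 or IRF4. The Psmb9 window held none of these letters. Nor did the windows, not shown, of Psme2, which rose in KO in both models, and of Psmb10, which rose in H9M KO and fell in MN1 KO. Over the 40 members with a window in the table, both strands searched, the interferon-stimulated element was found in 5 (12.5%), against 3.99% of the 27025 genes with a window. These were Psmb3, Psmd4, Psmd9, Psme1 and Psmg4, so Psme1 was the only immunoproteasome gene among them. The Ets-Irf element was found in 2 (5%), against 3.16%. The gamma-activated sequence was found in 3 members (7.5%), against 9.55% of genes. The core of the antioxidant response element, TGACNNNGC, which NRF2 and NRF1 bind and which drives proteasome genes after proteasome inhibition, was found in 6 (15%), against 14%; they include the catalytic Psmb5 and Psmb6. A match is a string of letters and no evidence of binding.

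Across the 8 groups Psmb8, Psmb9 and Psmb10 varied more in level than any other member. Psme1 and Psme2 lay within the range of the members outside the immunoproteasome. The highest group mean over the lowest had a median of 2.78 for the 5 immunoproteasome genes, with 4.26 for Psmb9, 3.2 for Psmb8, 2.78 for Psmb10, 1.72 for Psme2 and 1.39 for Psme1. For the other 41 members the median was 1.31, between 1.08 for Psmb5 and 1.73 for Psmd7, and over all genes tested it was 1.92. This range spans both models and so both column tags.

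**Figure D1:**
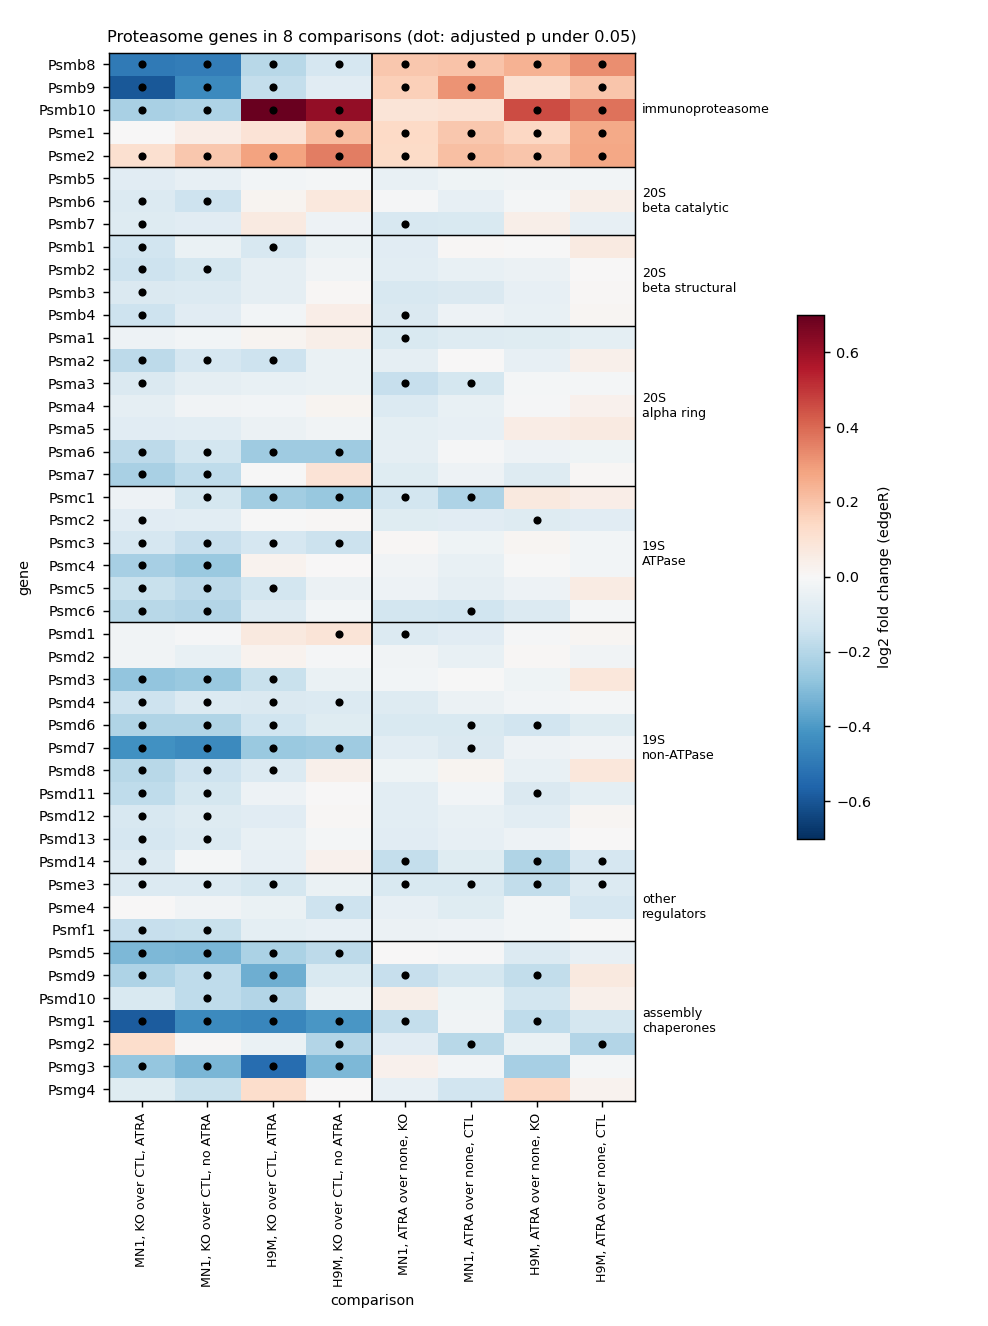
Heat map of the log2 fold change of each of the 46 tested proteasome genes (down the page, by role) in 8 comparisons (across, MN1 first, KO over CTL on the left and ATRA over no ATRA on the right); blue is lower, red is higher, and dots mark an adjusted p under 0.05. Most members are blue in the MN1 KO columns, where 28 and 33 of 46 are called lower, and the immunoproteasome genes are red in the ATRA columns.

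In MN1 cells, the knockout went with lower RNA of most proteasome genes. Without ATRA, 28 of the 46 tested members were lower in KO (60.9%, against 26.3% of all genes) and 1 was higher (2.17%, against 28.7%). With ATRA, 33 were lower (71.7%, against 28.6% of all genes) and 1 was higher (2.17%, against 28.6%). The decreases were small: the median log2 fold change over the members was -0.12 without ATRA and -0.13 with ATRA, beside 0.008 and 0.004 over all genes. The comparisons with and without ATRA use separate libraries, and 26 members were lower in both (56.5%, against 22.7% of all genes). Of the 28 and 33 genes called lower, 20 and 26 kept the call in every fit that left out 1 library. The counts also depended on scaling. With RLE scaling 25 were lower without ATRA and 25 with ATRA, and with DESeq2 25 and 26. The medians over all genes were then 0.022 without ATRA and 0.036 with ATRA.

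The lower calls in MN1 KO cells were spread unevenly over the modules. Without ATRA, they took in 3 of the 7 alpha ring genes, 1 of the 4 structural beta genes, 1 of the 3 catalytic beta genes, 5 of the 6 ATPase genes, 8 of the 11 lid and base genes without ATPase activity, 5 of the 7 assembly chaperones, 2 of the 3 other regulators and 3 of the 5 immunoproteasome genes. The share lower was 83.3% for the ATPases and 72.7% for the other 19S genes, against 26.3% of all genes. The 25% of the structural beta genes and the 33.3% of the catalytic genes were near that background. The median log2 fold change was below 0 in every class, however. It was -0.17 for the ATPases, -0.10 for the other 19S genes and -0.09 for the structural beta genes. For the catalytic and alpha ring genes it was -0.082 and -0.075. The classes are small, and differences between them were not tested. With ATRA, they took in 4 of 7 alpha ring, 4 of 4 structural beta, 2 of 3 catalytic, 5 of 6 ATPase, 9 of 11 other 19S, 4 of 7 chaperone, 2 of 3 other regulator and 3 of 5 immunoproteasome genes, against 28.6% of all genes.

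In H9M cells the knockout called fewer members. Without ATRA, 11 of 46 were lower in KO (23.9%), which is close to the 25.4% of all genes called lower, and 4 were higher (8.7%, against 26.1%). With ATRA, 19 were lower (41.3%, against 24.4%) and 2 were higher (4.35%, against 26.7%). The median log2 fold change was -0.03 without ATRA and -0.06 with ATRA, beside 0.000 over all genes in both. Of the 11 and 19 genes called lower, 6 and 13 kept the call whichever library was left out, and 9 members were lower in both comparisons (19.6%, against 19.3% of all genes).

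The difference between the models was itself tested, as the KO effect without ATRA in MN1 minus that in H9M. It was called negative for 12 members (26.1%, against 14.2% of all genes) and called positive for 1 (2.17%, against 14.2%). The 9 negative calls that held in every fit without 1 library were Psma7, Psmb6, Psmb8, Psmb9, Psmb10, Psmc4, Psmd3, Psmd7 and Psmd8. Psmc4, an ATPase of the 19S base, had 151, 152 and 155 CPM in MN1 KO, against 181, 182 and 185 CPM in MN1 CTL. In H9M it had 154, 154 and 147 CPM in KO, against 150, 153 and 152 CPM in CTL. The MN1 libraries did not overlap between KO and CTL, while the H9M libraries did, and the log2 fold changes were -0.26 ± 0.04 (SE; adjusted p = 2.41e-06, edgeR) in MN1 and 0.004 ± 0.041 (adjusted p = 0.971) in H9M. The difference between them was -0.26 ± 0.06 (adjusted p = 0.000676).

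Psma7, an alpha ring subunit, went the same way as Psmc4. Its log2 fold change was -0.18 ± 0.04 in MN1 KO (adjusted p = 0.000442, edgeR) and 0.09 ± 0.04 in H9M KO (adjusted p = 0.063), with a difference of -0.27 ± 0.06 (adjusted p = 0.000548). Psmd3, a lid subunit, had -0.26 ± 0.04 in MN1 KO and -0.05 ± 0.04 in H9M KO, with a difference of -0.21 (adjusted p = 0.00137). Psmc1, another ATPase of the base, was the 1 member called with a positive difference, 0.14 (adjusted p = 0.0157, edgeR). Its log2 fold change was -0.12 in MN1 KO and -0.27 in H9M KO. The call of the difference was lost when genes of low counts were kept in the fit.

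**Figure D2:**
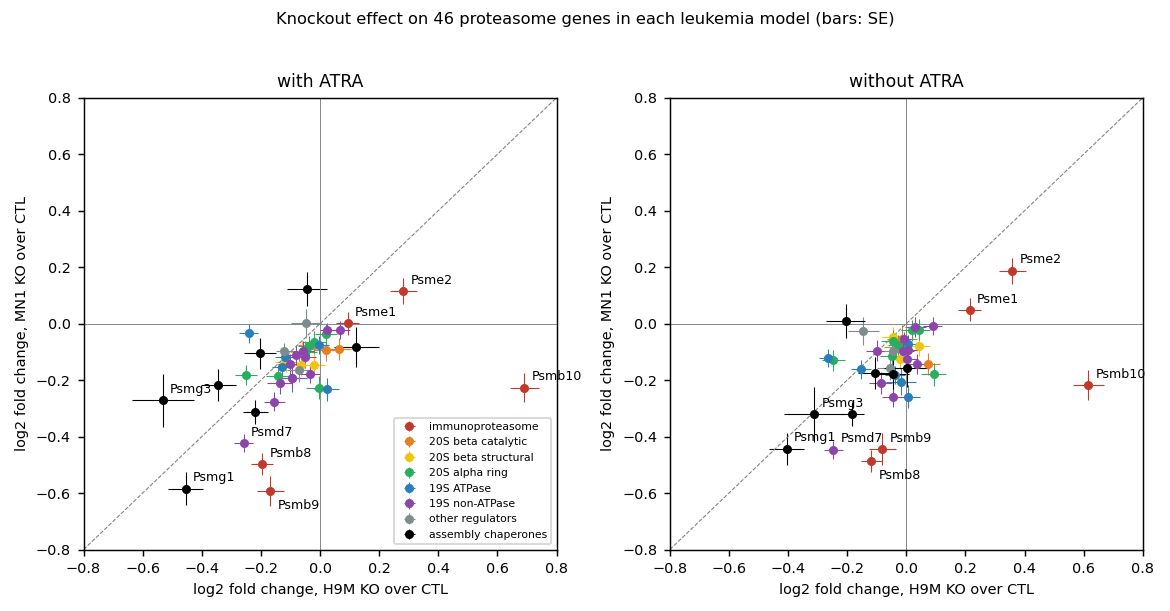
Log2 fold change of KO over CTL for the 46 tested members in MN1 (vertical axis) against H9M (horizontal axis), in panels with and without ATRA; bars are standard errors and the dashed line marks equal change. Without ATRA, Psmb10 lies farthest from the line (-0.22 in MN1, 0.62 in H9M), and most other members lie below it.

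Of the 46 members, 8 were lower in KO in all 4 comparisons (17.4%, against 12.5% of all genes): the alpha ring gene Psma6, the immunosubunit Psmb8, the ATPase Psmc3, the ubiquitin receptor Psmd4, the lid gene Psmd7, and the assembly factors Psmd5, Psmg1 and Psmg3. For 4 of them, Psma6, Psmd5, Psmd7 and Psmg1, every call held whichever library was left out. Psmc3 lost its call in H9M with ATRA without CTL + ATRA library 2 (-0.08). Psmd4 lost its call without 3 or 4 of the 6 libraries in every comparison except MN1 with ATRA, and with DESeq2 in MN1 and H9M without ATRA and in H9M with ATRA. Psme2 was higher in all 4 (2.17%, against 13.6% of all genes), and its call in MN1 KO + ATRA did not hold without single libraries.

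Psmg1 encodes a chaperone that, paired with PSMG2, guides the building of the alpha ring. It had 34.0, 31.5 and 31.4 CPM in MN1 KO, against 45.3, 42.1 and 44.2 CPM in MN1 CTL. The H9M values were 32.5, 31.0 and 32.7 CPM in KO, against 45.6, 40 and 42.1 CPM in CTL. In both models every KO library was below every CTL library. The log2 fold changes were -0.44 in MN1 (adjusted p = 8.94e-08, edgeR) and -0.41 in H9M (adjusted p = 7.56e-07). With ATRA, Psmg1 had 28.1, 28.9 and 29.1 CPM in MN1 KO, against 46.1, 39.96 and 43.1 CPM in MN1 CTL. The H9M values with ATRA were 27.5, 27.6 and 30.1 CPM in KO, against 41.2, 38.7 and 36.9 CPM in CTL. The groups again stood apart, with log2 fold changes of -0.58 (adjusted p = 3.73e-10) in MN1 and -0.46 (adjusted p = 1.85e-07) in H9M.

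Psmg3, which acts with PSMG4 in alpha ring assembly, was present at lower counts and its calls were less firm. Its log2 fold change in KO was -0.32 in MN1 (adjusted p = 0.00562, edgeR) and -0.27 in MN1 with ATRA (adjusted p = 0.0155). In H9M it was -0.31 (adjusted p = 0.01) and, with ATRA, -0.53 (adjusted p = 8.36e-05). The call in MN1 with ATRA was lost without CTL + ATRA library 1 or KO + ATRA library 1, where the log2 fold change came to as little as -0.20, and the call in H9M without ATRA was lost without CTL library 3 (-0.22).

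Psmd5 encodes a chaperone of the 19S base that leaves before the mature proteasome forms. Its log2 fold change was -0.32 ± 0.04 in MN1 KO (adjusted p = 1.7e-07, edgeR) and -0.18 ± 0.04 in H9M KO (adjusted p = 0.00043). With ATRA the values were -0.31 in MN1 and -0.22 in H9M. Psmg4 was called in none of the 8 comparisons of KO or ATRA, as were Psma4, Psma5, Psmb5 and Psmd2. The share of all genes with no call in these 8 was not counted, so no trait particular to these members can be read from it.

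Psmd7 encodes the lid subunit that pairs with the deubiquitinase PSMD14. It had 287, 282 and 288 CPM in MN1 KO, against 393, 383 and 391 CPM in MN1 CTL. H9M cells had 226, 231 and 232 CPM in KO, against 274, 274 and 269 CPM in CTL. All KO libraries were below the CTL libraries of their model. The fall was larger in MN1 (log2 fold change -0.45, adjusted p = 3.7e-13, edgeR) than in H9M (-0.25, adjusted p = 1.26e-07), with a difference of -0.20 (adjusted p = 0.000982). With ATRA, Psmd7 had 269, 267 and 277 CPM in MN1 KO, against 375, 353 and 362 CPM in MN1 CTL, a log2 fold change of -0.42. In H9M with ATRA the log2 fold change was -0.26. Without ATRA, its partner Psmd14 had -0.01 in MN1 KO and 0.03 in H9M KO, and neither value passed the test. With ATRA, Psmd14 was called lower in MN1 KO (162 CPM on average, against 173 CPM in CTL), but that call was lost without single libraries. It was not called in H9M KO with ATRA.

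**Figure D3:**
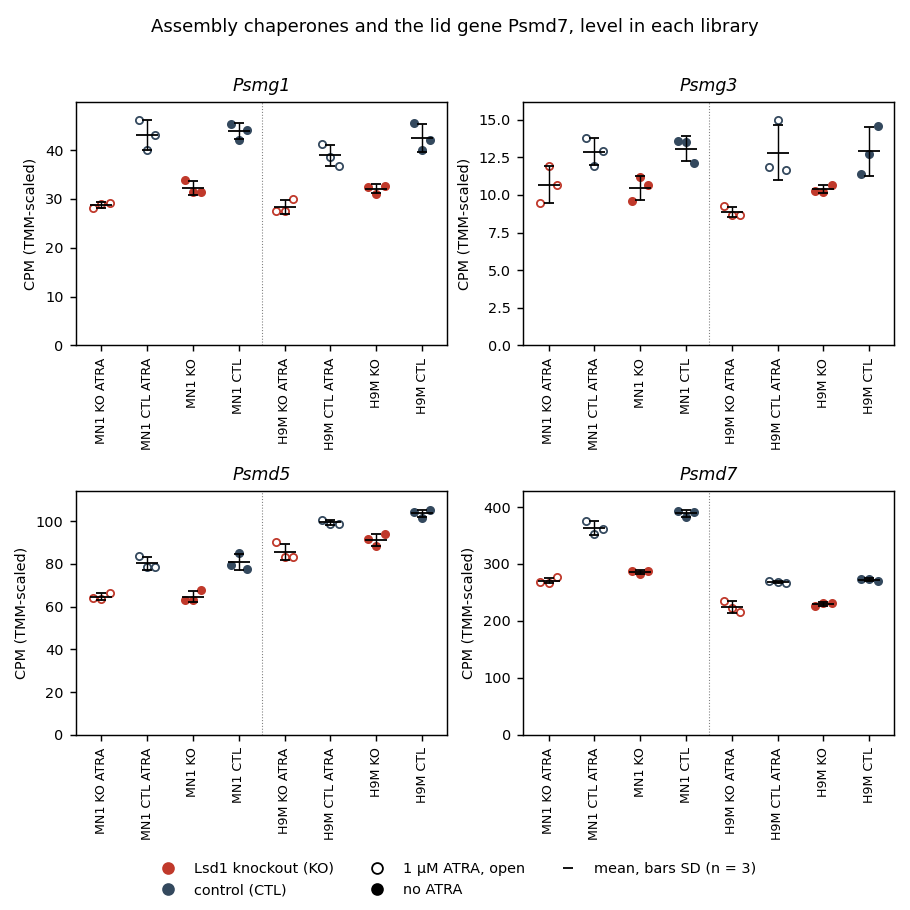
CPM per library (points), group mean (dash) and SD (bars, n = 3) of Psmg1, Psmg3, Psmd5 and Psmd7 in the 8 groups, each KO group left of its CTL group. For each gene the KO libraries lie below the CTL libraries in every pair, with Psmg1 means of at most 32.3 CPM in KO and at least 38.9 CPM in CTL. The Psmg3 groups nearly touch in MN1 with ATRA, where the highest KO library has 11.89 CPM and the lowest CTL library 11.95 CPM.

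Among the immunoproteasome genes, single genes differed between KO and CTL in opposite directions. Psmb10 encodes the immunosubunit that replaces PSMB7. It had 41.9, 38.2 and 39.8 CPM in MN1 KO, against 46.6, 47.4 and 45.4 CPM in MN1 CTL. In H9M it had 81.8, 81.3 and 79.7 CPM in KO, against 49.6, 52.6 and 56.3 CPM in CTL. Every MN1 KO library was below the MN1 CTL libraries, and every H9M KO library was above the H9M CTL libraries. The log2 fold change was -0.22 ± 0.05 in MN1 (adjusted p = 0.000869, edgeR) and 0.62 ± 0.05 in H9M (adjusted p = 1.17e-11). The difference, MN1 minus H9M, was -0.83 ± 0.07 (adjusted p = 1.82e-10).

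The same contrast was seen with ATRA. Psmb10 had 110, 111 and 112 CPM in H9M KO + ATRA, against 69.8, 73.1 and 63.5 CPM in H9M CTL + ATRA, a log2 fold change of 0.69 ± 0.05 (adjusted p = 4.53e-13, edgeR). In MN1 it had 40.4, 45.7 and 41.7 CPM in KO + ATRA, against 48.2, 49.3 and 51.9 CPM in CTL + ATRA, a log2 fold change of -0.23 ± 0.05 (adjusted p = 0.000422). The KO and CTL libraries did not overlap in either model.

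Psmb8 encodes the immunosubunit that replaces PSMB5. It had 64.1, 63.9 and 63.1 CPM in MN1 KO, against 88.3, 89.5 and 89.6 CPM in MN1 CTL. In H9M it had 154, 146 and 151 CPM in KO, against 156, 163 and 171 CPM in CTL. The MN1 groups stood well apart and the H9M groups were close without overlapping. The log2 fold changes were -0.49 ± 0.04 in MN1 (adjusted p = 8.49e-12, edgeR) and -0.12 ± 0.04 in H9M (adjusted p = 0.0082), where the call was lost without CTL library 3 (-0.09). The difference was -0.37 ± 0.05 (adjusted p = 3.15e-06). With ATRA, Psmb8 had 72.5, 71.7 and 73.3 CPM in MN1 KO, against 102, 99.6 and 106 CPM in MN1 CTL (log2 fold change -0.50, adjusted p = 2.59e-12). In H9M with ATRA it had 178, 176 and 180 CPM in KO, against 200, 217 and 196 CPM in CTL (-0.20, adjusted p = 4.12e-05).

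Psmb9, which replaces PSMB6, was lower in MN1 KO too. It had 22.4, 23.9 and 22.3 CPM in MN1 KO, against 31.1, 31.2 and 30.8 CPM in MN1 CTL. The H9M values were 81.0, 78.0 and 81.9 CPM in KO, against 81.0, 85.4 and 88.5 CPM in CTL. Only the MN1 groups were clear of each other. The log2 fold change was -0.44 ± 0.06 in MN1 (adjusted p = 4.99e-08, edgeR) and -0.08 ± 0.05 in H9M (adjusted p = 0.142), with a difference of -0.36 ± 0.07 (adjusted p = 0.000208). With ATRA, Psmb9 had 24.6, 25.7 and 26.4 CPM in MN1 KO, against 39.0, 37.9 and 38.9 CPM in MN1 CTL (-0.59, adjusted p = 4.74e-11). In H9M with ATRA the log2 fold change was -0.17 (adjusted p = 0.00265), and the call was lost without CTL + ATRA library 2 (-0.10). Tap1, the transporter gene that shares the promoter region with Psmb9, had a log2 fold change of -0.19 in MN1 KO and -0.30 in H9M KO, both called lower.

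Psme2, the PA28 beta subunit, had 106, 108 and 107 CPM in MN1 KO, against 96.2, 92.4 and 92.5 CPM in MN1 CTL. H9M cells had 146, 133 and 142 CPM in KO, against 106, 110 and 113 CPM in CTL. In both models the KO libraries were above the CTL libraries. The log2 fold change was 0.19 ± 0.05 in MN1 (adjusted p = 0.00093, edgeR) and 0.36 in H9M (adjusted p = 1.06e-07). With ATRA, it was 0.28 in H9M (adjusted p = 5.11e-06) and 0.11 in MN1 (adjusted p = 0.0339). In MN1 with ATRA the KO and CTL libraries overlapped, and the call was lost without CTL + ATRA library 1 or 2 or KO + ATRA library 2 or 3, where the log2 fold change was 0.10. Psme2 has a near-identical copy, Psme2b, so reads may be split between them.

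Psme1, the PA28 alpha subunit, had 132, 133 and 142 CPM in MN1 KO, against 127, 131 and 135 CPM in MN1 CTL. In H9M it had 168, 160 and 167 CPM in KO, against 143, 143 and 142 CPM in CTL. The MN1 groups overlapped and the H9M groups stood apart. The log2 fold change was 0.05 in MN1 (adjusted p = 0.315, edgeR) and 0.21 ± 0.04 in H9M (adjusted p = 4.29e-05). The difference of -0.17, MN1 minus H9M, passed the test (adjusted p = 0.0287) but lost the call in 6 of the 12 fits without 1 library (H9M CTL 3, H9M KO 1 and 3, MN1 CTL 3, MN1 KO 1 and 2), where it was -0.16 to -0.14. With ATRA, Psme1 had a log2 fold change of 0.09 in H9M KO (adjusted p = 0.0521) and 0.001 in MN1 KO (adjusted p = 0.994). Psme1 overlaps Emc9, and since the strand counted is not given, reads of the pair may be mixed.

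**Figure D4:**
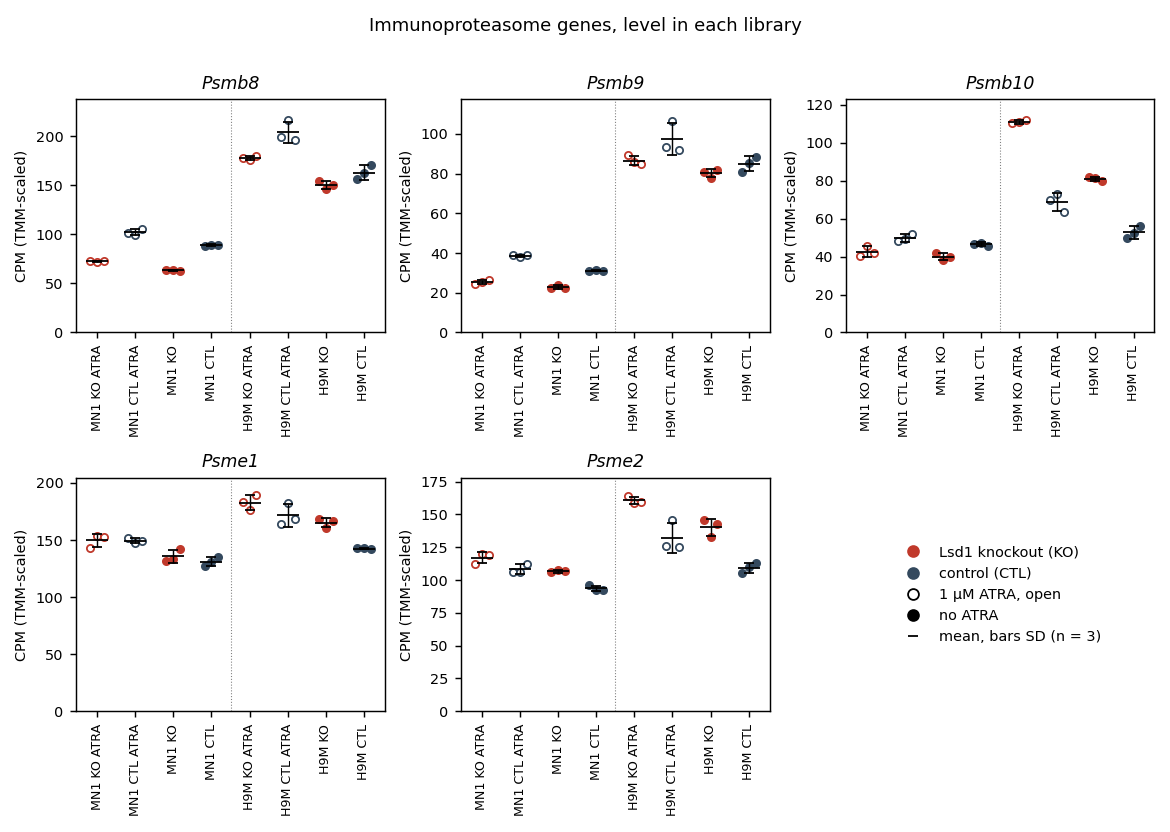
CPM per library (points), group mean (dash) and SD (bars, n = 3) of Psmb8, Psmb9, Psmb10, Psme1 and Psme2 in the 8 groups, each KO group left of its CTL group. Psmb10 is higher in H9M KO than in H9M CTL (80.9 against 52.8 CPM on average) and lower in MN1 KO than in MN1 CTL (39.95 against 46.5 CPM).

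Of the constitutive catalytic genes, Psmb5 was called in none of the 8 comparisons, and over all 24 libraries it had between 60.2 and 71.8 CPM. Psmb6 had a log2 fold change of -0.14 ± 0.04 in MN1 KO (adjusted p = 0.00286, edgeR) and 0.07 ± 0.04 in H9M KO (adjusted p = 0.146), with a difference of -0.22 ± 0.06 (adjusted p = 0.00432). Psmb7 passed in MN1 KO + ATRA alone of the KO comparisons (-0.09, adjusted p = 0.0497). That call was lost without any 1 of 5 of the 6 libraries (CTL + ATRA 1, 2 or 3, or KO + ATRA 2 or 3). The Psmb6 call with ATRA (-0.09, adjusted p = 0.0438) was lost without CTL + ATRA library 1 or 3 or KO + ATRA library 1 or 2, where it came to as little as -0.08.

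The log2 ratio of each immunosubunit to the subunit it replaces, taken within each library, does not depend on the scaling of libraries. For Psmb8 over Psmb5 the mean was -0.09 ± 0.04 in MN1 KO, against 0.34 ± 0.02 in MN1 CTL (SD, n = 3 each). In H9M it was 1.18 ± 0.004 in KO, against 1.28 ± 0.01 in CTL. For Psmb10 over Psmb7 it was 0.28 ± 0.05 in H9M KO, against -0.37 ± 0.15 in H9M CTL. These groups did not overlap. In MN1, Psmb10 over Psmb7 was -0.98 ± 0.08 in KO, against -0.84 ± 0.06 in CTL, and there the libraries overlapped. For Psmb9 over Psmb6, KO minus CTL was -0.30 in MN1 and -0.15 in H9M, with no overlap in either. Because levels are not per length, the sign of a ratio within a group carries no meaning.

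**Figure D5:**
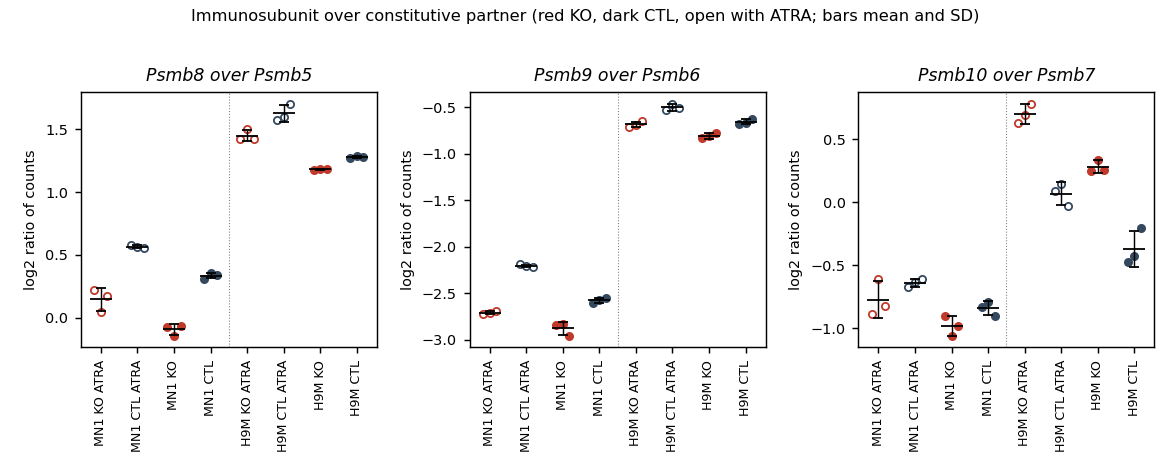
Log2 ratio of Psmb8 over Psmb5, Psmb9 over Psmb6 and Psmb10 over Psmb7 in each library (points) with the group mean (dash) and SD (bars, n = 3), each KO group left of its CTL group. All ratios are higher in the ATRA groups than in the matching groups without ATRA, by 0.12 to 0.44, and Psmb10 over Psmb7 is higher in H9M KO than in H9M CTL.

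ATRA raised immunoproteasome genes, and by edgeR they were the only members called higher with it; DESeq2 also called Psmd3 higher in H9M CTL (0.09). The comparisons of ATRA share CTL or KO libraries with those of the knockout, so they are not independent of them. In H9M CTL, 5 of 46 members were higher with ATRA (10.9%, against 12.9% of all genes) and 3 were lower (6.52%, against 12.3%). In H9M KO, 4 were higher (8.7%, against 13.9%) and 7 were lower (15.2%, against 15.4%). In MN1 CTL, 4 were higher (8.7%, against 11.4%) and 7 were lower (15.2%, against 10.4%). In MN1 KO, 4 were higher (8.7%, against 8.42%) and 10 were lower (21.7%, against 10.4%). The shares of higher members were thus near or below those of all genes. With DESeq2 or with RLE scaling the split in MN1 KO was 4 higher and 4 lower. All 17 higher calls were on Psmb8, Psmb9, Psmb10, Psme1 or Psme2. The median log2 fold change over the 46 members was 0.003 in H9M CTL, -0.03 in H9M KO, -0.05 in MN1 CTL and -0.07 in MN1 KO, beside medians of all genes between -0.02 and 0.000.

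The members higher with ATRA in all 4 settings were Psmb8, Psme1 and Psme2 (6.52%, against 2.71% of all genes). Psmb8 kept each call whichever library was left out. It had 200, 217 and 196 CPM in H9M CTL + ATRA, against 156, 163 and 171 CPM in H9M CTL, a log2 fold change of 0.32 (adjusted p = 4.29e-08, edgeR). It had 178, 176 and 180 CPM in H9M KO + ATRA, against 154, 146 and 151 CPM in H9M KO (0.25, adjusted p = 4.55e-06). The groups did not overlap. In MN1 the log2 fold change was 0.20 in CTL (adjusted p = 0.00023) and 0.19 in KO (adjusted p = 0.00092).

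Psmb10 rose with ATRA in H9M. In MN1 its log2 fold changes of 0.10 in CTL (adjusted p = 0.177, edgeR) and 0.09 in KO (adjusted p = 0.268) did not pass. In H9M it had 69.8, 73.1 and 63.5 CPM in CTL + ATRA, against 49.6, 52.6 and 56.3 CPM in CTL (0.38, adjusted p = 9.76e-07). It had 110, 111 and 112 CPM in H9M KO + ATRA, against 81.8, 81.3 and 79.7 CPM in H9M KO (0.46, adjusted p = 7.54e-09). The difference between the models in CTL cells, MN1 minus H9M, was -0.28 ± 0.07 (adjusted p = 0.00785), and Psmb10 and Psmc1 were the 2 members called lower in that test (4.35%, against 7.15% of all genes). In the same test 0 were called higher by edgeR (against 6.64% of all genes), with 7 members at an unadjusted p under 0.05 in either direction and 3 called with DESeq2. Without H9M CTL + ATRA library 2, Psmb9 was called higher (0.19).

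Psmb9 rose with ATRA in MN1 CTL (0.31, adjusted p = 2.73e-05, edgeR) and H9M CTL (0.20, adjusted p = 0.00158), while the 0.11 in H9M KO did not pass (adjusted p = 0.0765). In MN1 KO it passed (0.17, adjusted p = 0.0395) but lost the call without KO library 1 or 3 or KO + ATRA library 2 or 3, where it was 0.14 to 0.16. Psme1 rose with ATRA in H9M CTL (0.27), H9M KO (0.15) and MN1 CTL (0.19). Psme2 rose in H9M CTL (0.27), H9M KO (0.20) and MN1 CTL (0.21). In MN1 KO, Psme1 (0.14, adjusted p = 0.0117) lost its call without KO library 1 or 2 or KO + ATRA library 2 or 3, and Psme2 (0.13, adjusted p = 0.0386) without KO library 1, 2 or 3 or KO + ATRA library 2 or 3. Leaving out 1 library thus took the count of higher calls in MN1 KO to between 1 and 4.

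The members that were lower with ATRA came from several modules. The 10 lower in MN1 KO included the core genes Psma1, Psma3, Psmb4 and Psmb7, Psma3 was also lower in MN1 CTL, and Psmg1, Psmg2 or Psmd9, which encode assembly chaperones, were among the lower members in each setting. Psme3, which forms the homomeric PA28 gamma cap of nuclear proteasomes, was the 1 member lower in all 4 settings (2.17%, against 1.41% of all genes). Its log2 fold changes were -0.17 in H9M KO (adjusted p = 2.61e-05, edgeR), -0.10 in H9M CTL (adjusted p = 0.0127), -0.10 in MN1 KO (adjusted p = 0.0105) and -0.11 in MN1 CTL (adjusted p = 0.00856). The call held whichever library was left out in H9M KO. It was lost without CTL library 2 or CTL + ATRA library 2 in H9M CTL (-0.08), without CTL library 1 in MN1 CTL (-0.09) and without KO library 3 in MN1 KO (-0.09).

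Psmc1 fell with ATRA in MN1 CTL, and the difference between the models passed the test. It had 192, 194 and 191 CPM in MN1 CTL + ATRA, against 223, 219 and 228 CPM in MN1 CTL (-0.22 ± 0.03, adjusted p = 5.26e-06, edgeR). In H9M it had 243, 257 and 247 CPM in CTL + ATRA, against 236, 243 and 243 CPM in CTL (0.05 ± 0.03, adjusted p = 0.321). The MN1 groups stood apart and the H9M groups overlapped, and the difference was -0.26 ± 0.05 (adjusted p = 8.94e-05). Psmd14, the deubiquitinase of the lid, fell in H9M KO (-0.21), MN1 KO (-0.17) and H9M CTL (-0.12), and its -0.09 in MN1 CTL did not pass (adjusted p = 0.0873).

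The counts of members lower with ATRA rested on single libraries. In MN1 KO the count was 3 to 7 when 1 library was left out, with 5 without KO 1 or 2, 3 without KO 3, and 4 and 6 without KO + ATRA 2 and 3. In MN1 CTL it was 1 without CTL 1, 4 without CTL 3 and 3 without CTL + ATRA 2 or 3. In H9M KO it was 4 without KO 1 or KO + ATRA 3 and 3 without KO 3 or KO + ATRA 2, and in H9M CTL it was 1 without CTL 2.

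No member passed the test for a knockout effect that depended on ATRA. In H9M the KO + ATRA libraries kept more Kdm1a RNA than the KO libraries, as given above. The knockouts set against each other there were therefore not matched in Kdm1a, and the comparison of ATRA in H9M KO has the same limit. In H9M, 0 members were called by edgeR (5.04% of all genes) and 0 by DESeq2, with 5 at an unadjusted p under 0.05, and the smallest adjusted p was 0.102, for the 19S chaperone gene Psmd9. In MN1, 0 were called by edgeR (2.78% of all genes) and 0 by DESeq2, with 0 at an unadjusted p under 0.05 and a smallest adjusted p of 0.413. Without H9M CTL + ATRA library 3, Psmd9 alone was called in H9M (-0.29).

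Between CTL cells of the models, MN1 minus H9M, 21 members were higher (45.7%, against 37.6% of all genes) and 13 were lower (28.3%, against 35.9%), and the model and the column tag cannot be told apart here. The 5 immunoproteasome genes were all lower in MN1 CTL. Psmb9 had 31.1, 31.2 and 30.8 CPM in MN1 CTL, against 81.0, 85.4 and 88.5 CPM in H9M CTL (log2 fold change -1.45, adjusted p = 7.82e-22, edgeR). Psmb8 had a log2 fold change of -0.87, Psme2 of -0.23, Psmb10 of -0.19 and Psme1 of -0.12, and the Psme1 call was lost without MN1 CTL library 1 (-0.09). The members highest in MN1 CTL were the ATPase Psmc5 (0.52), Psmd7 (0.51), the catalytic Psmb6 (0.47) and the lid gene Psmd11 (0.43). Psmf1, which encodes the inhibitor PI31, had -0.47, Psme4, which encodes the PA200 cap, had -0.39, and Psmd5 had -0.36.

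Genes that work beside the immunoproteasome in class I antigen processing moved in both directions with the knockout. Of the 11 tested, 6 were higher (54.5%, against 28.7% of all genes) and 4 lower (36.4%, against 26.3%) in MN1 KO. In H9M KO, 6 were higher (54.5%, against 26.1%) and 3 lower (27.3%, against 25.4%). Tap2, the second subunit of the peptide transporter, had 76.1, 74.9 and 72.9 CPM in MN1 KO, against 116, 114 and 107 CPM in MN1 CTL (-0.59, adjusted p = 2.05e-14, edgeR). The H9M values were 118, 124 and 122 CPM in KO, against 177, 173 and 176 CPM in CTL (-0.53, adjusted p = 1.25e-13). The groups did not overlap in either model. Calr, the chaperone of class I loading, went the other way, with 0.59 in MN1 KO and 0.57 in H9M KO. Nlrc5, the transactivator of class I genes, had 1, 0 and 1 counts in MN1 CTL, against 1787, 1912 and 1898 counts in H9M CTL, and no fold is given.

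In the list of interferon signalling genes, 10 of 14 were higher in MN1 KO and 11 in H9M KO, and the others were not called (edgeR; 28.7% and 26.1% of all genes were higher). Irf8, a myeloid interferon regulatory factor, averaged 411 CPM in H9M KO, against 8.30 CPM in H9M CTL, and 23.8 CPM in MN1 KO, against 8.67 CPM in MN1 CTL. Irf1, which drives immunosubunit genes after interferon gamma, rose with ATRA by 1.03 in MN1 CTL, 0.84 in MN1 KO, 0.52 in H9M CTL and 0.71 in H9M KO on the log2 scale. Of the 14 genes, 6 were higher and 2 lower with ATRA in H9M CTL (42.9% and 14.3%, against 12.9% and 12.3% of all genes). In H9M KO the counts were the same (against 13.9% and 15.4%). In MN1 CTL, 7 were higher and 0 lower (against 11.4% and 10.4%), and in MN1 KO 6 and 0 (against 8.42% and 10.4%). These values stand beside those of the immunoproteasome genes, and their part in them was not tested.

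Of the proteasome partners outside the Psm families, 17 of 18 were tested; 6 were lower (35.3%, against 26.3% of all genes) and 1 higher (5.88%, against 28.7%) in MN1 KO, and 4 were lower (23.5%, against 25.4%) and 2 higher (11.8%, against 26.1%) in H9M KO. Nfe2l2, which encodes NRF2, had a log2 fold change of -0.16 in MN1 KO and 0.37 in H9M KO, with a difference of -0.53 (adjusted p = 7.84e-09, edgeR). Ddi2, the protease that activates NRF1, had -0.03 in MN1 KO (adjusted p = 0.518) and 0.67 in H9M KO (adjusted p = 1.53e-14). Adrm1, a ubiquitin receptor of the 19S base, and Pomp, the maturation factor of the 20S core, had -0.27 and -0.18 in MN1 KO, both called lower, and -0.06 and -0.03 in H9M KO, where neither passed.

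H3K4me2 at proteasome promoters was compared between 1 GFI1-KD and 1 GFI1-WT library, so there is no replicate check and no test. Within 1 kb of the start, the 40 members with a RefSeq promoter held 9667 reads in GFI1-KD and 9828 reads in GFI1-WT. Scaled to the 9538627 and 8949072 reads kept, the log2 ratio of GFI1-KD over GFI1-WT was -0.12 (95% interval -0.16 to -0.08, exact binomial, counting error only). The same ratio over all 27025 promoters was 0.013 (0.011 to 0.015). The median of single promoters was -0.15 for these members and -0.09 over all promoters. The 2 sets differ in signal, with a median of 27.2 reads per 1000000 in GFI1-WT for these members and 2.79 over all promoters. Promoters of like signal were not set beside the members, so no trait particular to proteasome promoters can be read from these ratios. The 5 immunoproteasome promoters had 1688 reads in GFI1-KD and 1677 in GFI1-WT, a log2 ratio of -0.08 with an interval of -0.18 to 0.02 that includes 0. Psmb8 had 50.6 reads per 1000000 in GFI1-KD and 48.2 in GFI1-WT, where it stood at percentile 99.5 of all promoters. Psmb10 had 21.9 reads per 1000000 in GFI1-KD and 28.9 in GFI1-WT, and Psmg1 had 31.0 in GFI1-KD and 35.2 in GFI1-WT.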

How the data were processed

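The deposited RNA table holds whole-number counts per gene and library. Per the submitters' processing notes, STAR 2.5.3 and mm10 were used for RNA, and CASAVA 1.8.2, BWA (no version) and bedtools 2.27.0 are also named. The sources used here do not give how reads were counted, with which annotation or on which strand. Values of the 12 members that overlap another gene are therefore uncertain. The deposited ChIP files list aligned reads with a score per read, its mapping quality, and reads with a score of at least 10 were counted by their midpoint within 1 kb of the RefSeq start. An input library was not used here.

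TMM scaling and the low-count filter filterByExpr came from edgeR 4.0.16 (R 4.3.3). A model of all 8 groups (24 libraries, 16 residual degrees of freedom, common variation between replicates of 4.01%) was tested by edgeR's quasi-likelihood test in 13 comparisons, two-sided, with Benjamini-Hochberg adjustment over 14663 genes and a threshold of 0.05. "Higher" and "lower" mean an adjusted p under it. CPM are counts per 1000000 of the TMM-scaled library, not per length, so genes are not compared in level. Library totals of 22402558 to 32674685 set the precision. Alternatives were DESeq2 1.42.0, RLE scaling, no filter, one model only, a replicate block and leaving out each library.

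Replicate numbers did not pair the libraries: over 36 pairs of the same number, correlations of the deviations from group means ran from -0.0749 to 0.0773. The members, gene lists, motifs and tests were chosen with earlier results of these data known. Named were Kdm1a, the immunoproteasome and catalytic genes in every comparison, up to 5 called members with the largest and smallest change in each, members below the filter, and up to 3 genes of each pathway list with the smallest adjusted p. Genes of patterns across comparisons, and a few others, were named after their values were seen. Promoter sequences are from RefSeq (GRCm38.p6), and 40 of the 48 members matched. A few items withheld for evaluation are not reported here.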

Additional observations from a re-analysis of the deposited data

Results flagged for a closer look

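For 13 of the 46 tested members the knockout effect without ATRA differed between the models, against 4159 of 14663 genes. The call is by edgeR's test of the difference itself (MN1 minus H9M, log2 scale, adjusted p under 0.05). Members thus differed about as often as all genes, but mostly in 1 direction. The difference was called negative for 12 (26.1%, against 14.2% of all genes) and called positive for 1 (2.17%, against 14.2%). The model cannot be told apart from the tag in the column names. The difference was -0.83 for Psmb10, -0.37 for Psmb8, -0.36 for Psmb9, -0.27 for Psma7, -0.26 for Psmc4, -0.22 for Psmb6, -0.21 for Psmd3, -0.20 for Psmd7, -0.19 for Psmc6, -0.18 for Psmd8, -0.17 for Psme1, -0.14 for Psmc5 and 0.14 for Psmc1. The calls of Psmc6, Psme1 and Psmc5 did not hold without single libraries: Psmc6 lost it in 9 of 12 such fits, Psme1 in 6 and Psmc5 in 3 (without H9M CTL 1, MN1 CTL 1 or MN1 KO 1).

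The effect of ATRA in CTL cells differed between the models for 2 members by the same test, by -0.28 for Psmb10 and by -0.26 for Psmc1. That is 4.35% of members called with a negative difference, against 7.15% of all genes, and 0 called with a positive one, against 6.64%. Both calls held in every fit without 1 library. Groups had 3 libraries, so single libraries were not tested for standing apart from their group.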

How the results depend on the processing

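No called result changed direction under any alternative, while values near 0 that were not called did change sign, such as Psmc4 in H9M KO (0.004, between -0.009 and 0.025 without 1 library). The counts of called members that moved by over 1.5 times are these. With DESeq2 and with RLE scaling, 4 members were higher in H9M KO + ATRA (2 in the model reported), 2 were higher in MN1 KO + ATRA (1) and 4 were lower with ATRA in MN1 KO (10). With no filter on low counts, 0 were higher in MN1 KO + ATRA (1), 4 were lower with ATRA in MN1 CTL (7), 5 were lower with ATRA in MN1 KO (10), and the difference of the knockout effect was positive for 0 (1). In a fit of one model only, 2 were lower with ATRA in H9M KO (7). With the replicate block, 2 were higher in MN1 KO + ATRA (1), 2 were higher with ATRA in MN1 KO (4), and the difference of the knockout effect was positive for 2 (1); the block changed no other count by as much. Leaving out 1 library gave 1 to 4 lower with ATRA in H9M CTL, 3 to 10 in H9M KO, 1 to 6 in MN1 CTL and 3 to 7 in MN1 KO, 1 to 4 higher with ATRA in MN1 KO, 0 to 1 higher in MN1 KO + ATRA, 0 to 1 lower for the interaction in H9M, 1 to 2 positive differences of the knockout effect and 0 to 1 of the ATRA effect. Of the values of single genes, 21 lost and 12 gained the call with DESeq2, 26 and 7 with RLE scaling, 30 and 4 with no filter, 14 and 5 with one model only, and 8 and 6 with the replicate block. The cause was not tested. The ratios of immunosubunits kept their differences with a pseudocount of 0.5 and without each library, and H3K4me2 with no quality minimum (-0.12) and a 2 kb window (-0.13). With 3 libraries a group, changes of about 0.1 on the log2 scale lie at the limit of what the test calls, and leaving out 1 library often decided them.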
